A study of Mus musculus with 2 samples.

Results

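The cytosolic ribosomal protein genes were examined in single immune cells of mouse lungs that held melanoma metastases. Members were taken by symbol: Rpl or Rps followed by a number and an optional letter, or Rplp0, Rplp1, Rplp2 and Rpsa, leaving out pseudogenes named with -ps and the Rps6k kinases, with at least 100 UMIs over both libraries. A UMI (unique molecular identifier) marks 1 captured RNA molecule. Of 83 symbols that match, 81 were members, among 55357 features. They comprised 32 genes of the small (40S) and 49 of the large (60S) subunit. Just outside the threshold lay Rpl32l with 34 UMIs and Rpl10l with 0, and just inside it lay Rpl39l with 301 and Rpl3l with 343. The next lowest were Rpl6l with 916 and Rps4l with 1956, both annotated as processed pseudogenes in spite of their symbols, and every other member had at least 33729 (Rpl13a). Rps3a1, whose symbol ends in a digit, falls outside the rule, as does the fusion gene Fau.

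The study sorted live CD45-positive cells, the surface mark of white blood cells, from lungs of C57 mice carrying metastases of the melanoma line B16F10. The tumour cells had either wild-type IRF7, a transcription factor that drives type I interferon, or the IRF7-C435A mutant, named for a cysteine changed to alanine. The libraries are called WT and C435A after the genotype of the tumour cells; the sequenced immune cells are labelled with no genotype of their own. There was 1 library per group, and how many mice each pooled is not given in the sources used here, so no difference between the libraries has a replicate check, cells are not replicates, and intervals (95%) cover counting error alone.

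A ribosome holds a single copy of most of these proteins, assembled with ribosomal RNA into a small (40S) subunit that reads the mRNA and a large (60S) subunit that joins amino acids. Their mRNAs belong to the TOP class, which begins with a cytosine followed by a run of pyrimidines at the 5′ end; through this tract the kinase mTOR and the RNA-binding protein Larp1 set how much of each mRNA is translated. Resting lymphocytes are small cells known for a high proportion of ribosomal protein mRNA.

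Of the 81 members, 59 matched the RefSeq promoter table (GRCm38.p6) with 71 start sites, against 32851 starts of all genes in it. A cytosine followed by 4 pyrimidines as the first 5 transcribed bases stood at 18.3% of member starts, in 13 genes, and at 2.50% of all starts. CCGGAAG, the letters of an ETS factor site, occurred on either strand of the 300 bases around 36.6% of member starts and 8.86% of all starts, CTTTCC around 49.3% and 26.6%, AAGATGGC, the letters of YY1, around 9.86% and 2.75%, and GGGCGG around 57.8% and 35.7%. CACGTG was at 11.3% and 7.15%, CTTTTC at 23.9% and 21.8%, and TATAAA at 8.45% and 13.6%. A match of letters is a description and not a bound site. A few windows of 120 bases are shown: Rps15a and Rps18, among the members with the most UMIs, and Rps6, the substrate of the S6 kinases, show the pyrimidine start, and Rps27 beside Rps27l shows the paralogues whose proportion is described below. Each runs 5′ to 3′ on the gene's strand with 100 bases before the annotated start and 20 transcribed bases, and capitals mark the pyrimidine run at the start, CCGGAAG, and AAGATGGC on either strand. In Rps15a the antisense letters GCCATCTT run into the pyrimidine run.
Rps15a (chr7:118116128-118116247, minus strand): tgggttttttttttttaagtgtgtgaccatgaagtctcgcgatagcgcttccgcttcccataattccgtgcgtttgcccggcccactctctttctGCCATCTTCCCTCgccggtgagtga
Rps18 (chr17:33955646-33955765, minus strand): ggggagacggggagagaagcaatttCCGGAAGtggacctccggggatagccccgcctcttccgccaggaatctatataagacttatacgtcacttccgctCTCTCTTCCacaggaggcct
Rps6 (chr4:86857348-86857467, minus strand): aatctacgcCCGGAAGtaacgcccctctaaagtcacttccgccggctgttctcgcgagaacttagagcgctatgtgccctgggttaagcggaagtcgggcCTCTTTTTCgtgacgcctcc
Rps27 (chr3:90213629-90213748, minus strand): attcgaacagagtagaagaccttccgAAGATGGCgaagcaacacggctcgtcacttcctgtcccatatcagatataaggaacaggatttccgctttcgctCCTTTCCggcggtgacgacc
Rps27l (chr9:66945986-66946105, plus strand): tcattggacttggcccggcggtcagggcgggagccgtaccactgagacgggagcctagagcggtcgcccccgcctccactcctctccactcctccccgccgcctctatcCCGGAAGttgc
The runs of Rps18 and Rps6 are 9 bases long, that of Rps15a 8 and that of Rps27 7. Neither of the annotated starts of Rps27l begins with a pyrimidine run, which says only that these letters are not at the start in this table.

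After filtering, 9427 cells of the C435A library and 9199 of the WT library were kept, with medians of 3200.0 and 2684.0 UMIs; 24 barcodes occur in both libraries. Cells were gated by marker UMIs, and 76.6% and 75.2% of them received a type. Ungated cells were deeper, with medians of 5281.5 and 3991.0 UMIs against 2891.0 and 2521.0 in gated cells. The gate allows at most 1 UMI of another lineage, or under 20 of the melanoma markers. A relaxed gate, chosen after seeing the data, asks instead that a lineage hold at least 80% of a cell's lineage marker UMIs. It also leaves Clec4e and Mcemp1 out of the classical monocyte markers. Its values are given for some of the results. The labels call the cells melanoma cells, yet Ptprc, which encodes CD45, was detected in 91.3% and 88.4% of kept cells. In the WT library only 13 cells were gated as melanoma cells. They had 0 Ptprc UMIs, a median of only 1396 UMIs and a ribosomal protein share of 16.0%. The C435A library had too few such cells for a share to be given. With the relaxed gate there were 57 in the C435A and 95 in the WT library, with medians of 34299 and 48287 UMIs and shares of 13.8% and 12.98%. Igkc, an antibody chain made by B lineage cells, had UMIs in 82.3% and 86.0% of CD8 T cells, at 398 and 671 CPM (UMIs per 1e6 UMIs of a cell type) against 263917 and 331263 in plasma cells. T cells are not known to make antibody; where these UMIs came from, and the part of such UMIs in the ribosomal protein share, was not tested.

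The 81 genes held 16752741 UMIs, 17.3% of all UMIs in kept cells, and every kept cell had some. The range over single cells ran from 0.966% to 61.6% in the C435A library and from 0.837% to 47.7% in the WT library. The 10 members with the most UMIs, which include Rplp1 (583322), Rps24 (548432), Rps14 (453472), Rpl23 (451509), Rpl32 (390873), Rps15a (367807), Rps18 (362092), Rps16 (346125) and Rpsa (329690), together held 24.9% of the pool. Rplp1 encodes an acidic protein of the stalk that recruits elongation factors, Rps14 sits in the platform of the small subunit, and Rpsa is also known as the laminin receptor. The median member had 201684 UMIs, so the pool was spread over many genes. The 322 named pseudogenes left out held 86399 UMIs, 0.516% of the members' total; where a member has near-identical copies the counting may have split its reads, and counts of Rpl13a, Rpl6l and Rps4l in particular are uncertain.

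Naive CD8 T cells had the largest ribosomal protein share of the gated types and states in both libraries, and mature neutrophils the smallest. With the relaxed gate, immature neutrophils (46 and 102 cells) held less, 3.41% in both libraries, than mature neutrophils at 4.55% and 3.75%. In naive CD8 T cells (Ccr7, Lef1, Igfbp4 or Dapl1 present and at most 1 effector UMI) the members held 32.4% (95% interval 32.3 to 32.5, 439 cells) of UMIs in the C435A library and 33.4% (33.3 to 33.4, 1112 cells) in the WT library. Naive CD4 T cells held 29.8% and 31.6%, non-dividing B cells 25.2% and 24.9%, gamma delta T cells 22.6% and 22.9%, and regulatory T cells 20.8% and 22.3%. Among innate cells the share was 14.4% and 13.9% in NK cells, 15.4% and 15.8% in type 2 conventional dendritic cells, 14.0% and 14.1% in mature dendritic cells, 14.2% and 12.8% in classical monocytes, 13.6% and 13.8% in nonclassical monocytes, 11.2% and 9.30% in C1q macrophages and 8.72% and 8.26% in alveolar macrophages. Mature neutrophils, short-lived cells with little RNA, held 4.69% (93 cells) and 3.61% (79 cells), with a median of 52 and 53 ribosomal protein UMIs per cell against 941 and 1019 in naive CD8 T cells. Neighbouring values were not separate: the quartile ranges of NK cells, mature dendritic cells and nonclassical monocytes overlapped in both libraries.

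**Figure D1:**
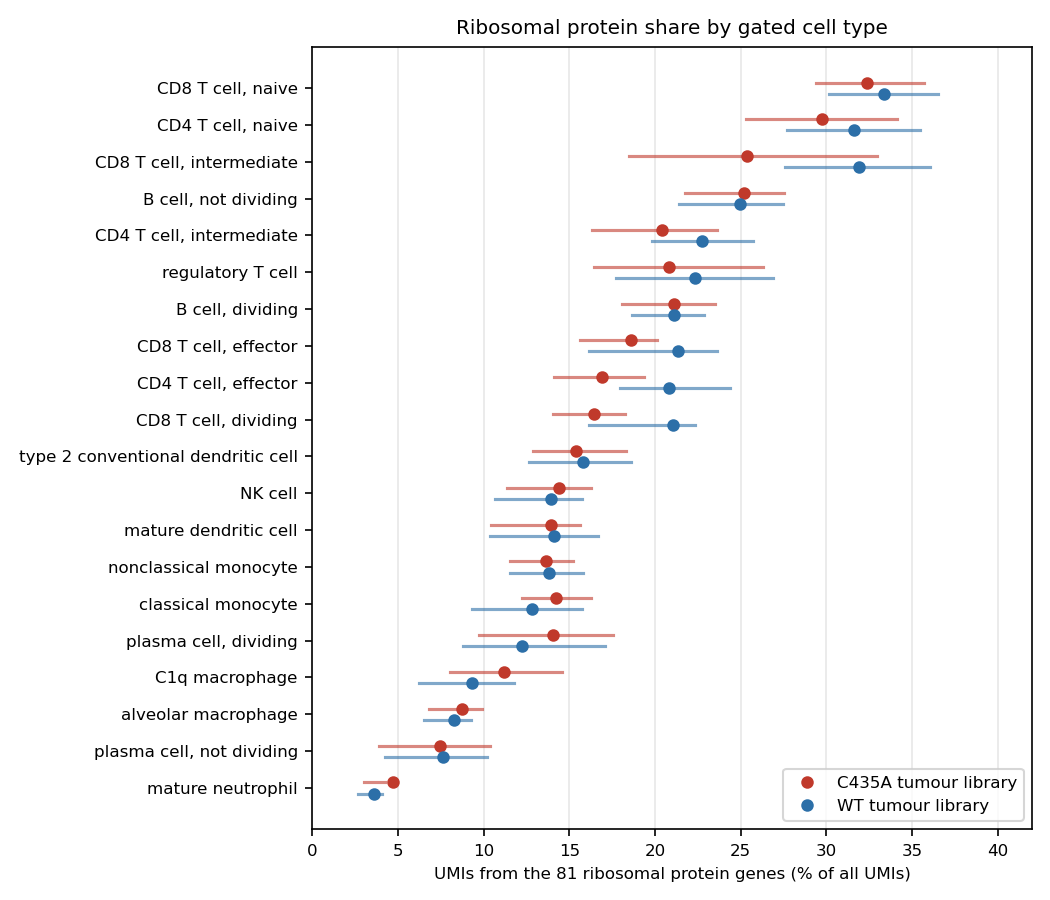
Share of UMIs from the 81 ribosomal protein genes (x axis, percent) in each gated cell type or state (y axis) of the C435A (red) and WT (blue) libraries. Points are summed shares, lines the lower to upper quartile of single cells; naive CD8 T cells lie at 32.4% and 33.4% and mature neutrophils at 4.69% and 3.61%.

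The share differed with depth within a type. From the shallowest to the deepest of 3 depth bins of non-dividing B cells it went from 22.5% to 26.3% in the C435A library and from 23.4% to 26.3% in the WT library. Naive CD8 T cells went from 31.5% to 32.6% and from 31.6% to 34.0%, non-dividing NK cells from 12.7% to 15.3% and from 12.4% to 15.4%, and non-dividing alveolar macrophages from 7.94% to 8.93% and from 6.51% to 8.39%. The deepest NK cells stayed below the shallowest B cells.

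Plasma cells, which fill their mRNA with antibody transcripts, held 11.3% (175 cells) and 9.28% (120 cells) of UMIs in members. Immunoglobulin genes took 39.5% of their UMIs in the C435A library and 50.9% in the WT library. Of the UMIs outside the immunoglobulin genes the members held 18.6% and 18.9%. In B cells, where immunoglobulin genes took 2.08% and 2.32%, the same change of denominator gave 24.7% and 24.9%.

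Within CD8 and CD4 T cells the members were lower in effector than in naive cells in both libraries. Effector cells had at least 3 UMIs of Ccl5, Gzma, Gzmb, Gzmk, S100a4 and Cxcr6 and none of the naive genes. Effector CD8 T cells held 18.6% (290 cells) and 21.3% (154 cells), so naive cells were 1.74 and 1.56 times higher. Effector CD4 T cells held 16.9% (142 cells) and 20.8% (37 cells), and naive cells were 1.76 and 1.52 times higher. A gene with at least 100 UMIs in a comparison is called higher or lower below where its log2 ratio passes 0.32. In library counts simulated for CD8 T cells, B cells and alveolar macrophages, 6.3% to 7.5% of unchanged genes passed it by counting error. Most members have far more than 100 UMIs, so fewer of them pass it by counting error alone. A count of members below the share of all genes is therefore no sign of stability by itself. Of 77 members, 69 in the C435A library and 70 in the WT library were higher in naive CD8 T cells, where 24.8% and 20.7% of all genes measured were; the median member's log2 ratio was 0.74 and 0.63 against -0.14 and -0.13 for all genes. In CD4 T cells 70 and 67 of 77 were higher in naive cells, where 22.7% and 28.2% of all genes were.

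The members differed in the size of this difference. Rpl12, a protein of the stalk base, had 7012 CPM in naive and 2712 in effector CD8 T cells of the C435A library (log2 1.37), and 7215 and 3507 in the WT library (1.04). Rps20, of the head of the small subunit, had 6112 and 2381 CPM (1.36), and 6556 and 2949 in the WT library (1.15). Rpl36a had 2060 and 793 CPM (1.38), and 2153 and 1066 (1.01). All 3 were higher in naive cells of both libraries in CD4 T cells too, where Rpl36a reached 1.58 and 1.14. At the other end, Rpl13a had 450 and 546 CPM in naive and effector CD8 T cells of the C435A library (-0.28) and 493 and 519 in the WT library (-0.08). Rps27l, a paralogue of Rps27 known as a target of p53, was the 1 member called lower in naive cells in each of the 4 comparisons, with log2 ratios of -0.71 and -0.67 in CD8 and -1.02 and -0.88 in CD4 T cells; 37.7% and 34.4% of all genes were lower in naive CD8 T cells and 44.2% and 35.8% in naive CD4 T cells.

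Dividing CD8, CD4 and B cells, which had at least 3 UMIs over 10 cell cycle genes such as Mki67 and Top2a, held a smaller share but more ribosomal protein UMIs per cell than other cells of their type; plasma cells and alveolar macrophages did not have the smaller share. In the C435A library 644 dividing CD8 T cells held 16.4% and the other 1147 held 25.9%, a log2 ratio of -0.66 (-0.66 to -0.65). The mean number of ribosomal protein UMIs per cell was 1474 in dividing and 896 in other CD8 T cells, 1.65 times as many. All UMIs per cell were 2.60 times as many. Deep cells reach the 3 UMIs of the gate more easily, so amounts per dividing cell, in B cells too, depend partly on the gate. Of 78 members, 65 were lower and 1, Rps27l, higher in CPM, beside 28.1% lower and 32.0% higher among all genes. Dividing CD4 T cells of that library gave -0.60 (14.7% against 22.3%), with 67 of 77 members lower beside 27.8% of all genes and 1 higher beside 30.7%. The WT library had only 36 dividing CD8 and 19 dividing CD4 T cells, too few for the 50 set for this comparison. Their shares were 21.0% and 18.9%. The other T cells pool naive, intermediate and effector cells. Effector cells alone held 18.6% and 21.3% in CD8 T cells of the C435A and WT libraries, nearer to the dividing cells. In CD4 T cells they held 16.9% and 20.8%.

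B cells went the same way by less, and plasma cells the other way. Dividing B cells held 21.1% in both libraries against 25.2% and 24.9% in other B cells, log2 ratios of -0.25 and -0.24, and their ribosomal protein UMIs per cell were 3.99 and 4.20 times as many. Of 77 members, 28 and 27 were lower in dividing B cells and 7 and 8 higher, beside 35.2% and 35.0% lower and 35.5% and 35.1% higher among all genes. In plasma cells of the C435A library, 88 dividing cells held 14.1% and 87 other cells 7.43%, a log2 ratio of 0.92, with 76 of 77 members higher beside 78.9% of all genes. Immunoglobulin genes took 27.8% of UMIs in those dividing plasma cells and 55.6% in the others, and with mitochondrial and immunoglobulin UMIs left out of the denominator the log2 ratio was 0.21. Dividing alveolar macrophages differed by 0.04 and 0.05 in log2, with 0 and 2 of 78 members higher beside 20.5% and 18.7% of all genes and 2 and 0 lower beside 16.3% and 15.3%.

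**Figure D2:**
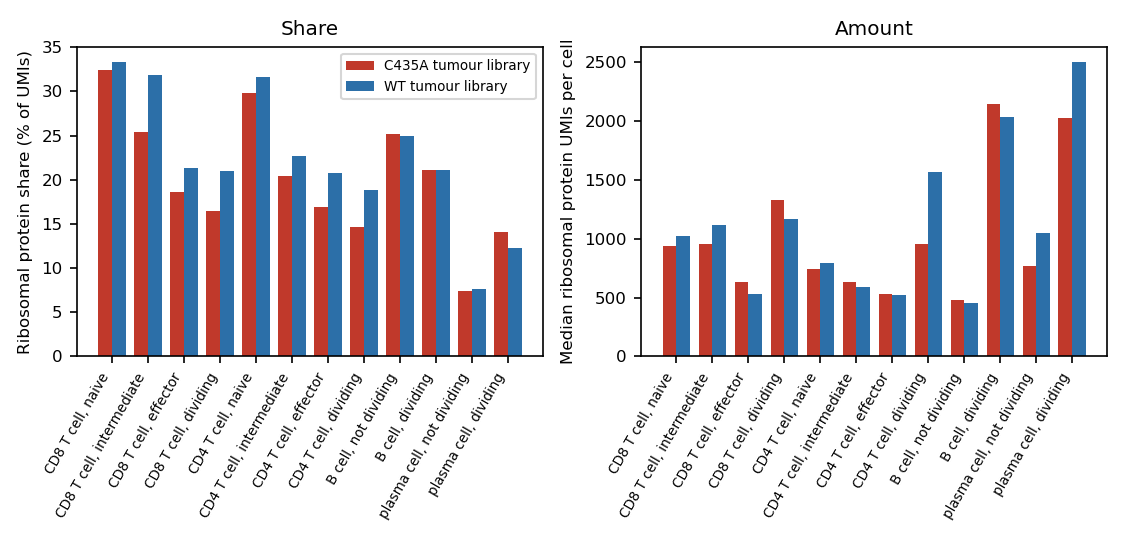
Ribosomal protein share in percent of UMIs (left, bars from 0) and median ribosomal protein UMIs per cell (right, bars from 0) by state in the C435A (red) and WT (blue) libraries. Dividing CD8 T cells of the C435A library have a share of 16.4% but a median of 1332.5 UMIs per cell, above the 941 of naive cells.

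Between the libraries the largest difference lay in T cells taken whole. CD8 T cells held 20.3% (1791 cells) in the C435A library and 31.5% (1612 cells) in the WT library, a log2 ratio C435A over WT of -0.63 (-0.64 to -0.63). CD4 T cells held 19.02% (699 cells) and 28.9% (631 cells), -0.60 (-0.61 to -0.60). In CD8 T cells 68 of 78 members were lower in the C435A library, beside 25.0% of all genes, and 1 was higher, beside 31.8%; past 1.5-fold, 41 were lower beside 13.4%. In CD4 T cells 66 of 77 were lower beside 16.5% of all genes, and 1 higher beside 35.6%. The median member's log2 ratio was -0.59 in both, against 0.04 for all genes in CD8 and 0.15 in CD4 T cells.

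The makeup of the T cells by state differed as well. Naive cells were 24.5% of CD8 T cells in the C435A library and 69.0% in the WT library, and dividing cells 36.0% (59.3% of the UMIs) and 2.23% (4.90% of the UMIs). Within naive CD8 T cells the log2 ratio was -0.04 (-0.05 to -0.04), with 1 of 77 members, Rpl15, lower beside 10.0% of all genes and 0 higher beside 11.4%; past 1.5-fold, 0 were lower beside 2.16%. In effector CD8 T cells it was -0.20, with 17 of 77 lower beside 16.5% of all genes. In the intermediate cells, which fit neither definition, it was -0.33, with 38 of 77 lower beside 14.0%. Naive CD4 T cells gave -0.09, with 3 of 77 lower beside 11.0% of all genes. The 4 states were also weighted in both libraries by the mean of the libraries' state proportions, counted in cells. The CD8 shares were then 26.1% and 29.1%, a log2 ratio of -0.16, and the CD4 shares 24.2% and 26.8%, -0.14. Ratios of the whole types weight each cell by its UMIs, so they and these values are not like measures. The weighting by states was chosen after seeing the data.

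Rps27, a small subunit protein with a zinc finger, had the lowest ratio in CD8 T cells among members with at least 200 UMIs. It had 2697 CPM in the C435A library and 6192 in the WT library (log2 -1.20, -1.22 to -1.18). Rps24 had 6061 and 13189 CPM (-1.12) and Rps19, a gene mutated in Diamond-Blackfan anaemia, 2638 and 5440 (-1.04). Within naive CD8 T cells the libraries lay closer. Rps27 had 5973 and 6654 CPM there, Rps24 12972 and 14332, and Rps19 4766 and 5886. The same 3 genes were the lowest in CD4 T cells, at -1.12, -1.04 and -1.01. At the top were Rps27l with 324 and 143 CPM in CD8 T cells (1.18, 1.06 to 1.29) and 263 and 127 in CD4 T cells (1.05); within naive CD8 T cells it was 127 and 125. Next came Rpl13a at 0.01 in both types. Rpl7a was level in CD8 T cells, with 1365 and 1361 CPM.

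In B cells the log2 ratio of the share was -0.01, and in NK cells 0.05. Of 79 members in B cells, Rps27l (231 and 176 CPM) and the sparse Rpl6l (17.9 and 9.54 CPM) were higher in the C435A library, beside 7.47% of all genes, and Rpl27a (845 and 1089 CPM) was lower, beside 7.91%. Within states Rps27l was not called: it had 122 and 116 CPM in non-dividing and 579 and 503 in dividing B cells, and dividing cells held 23.9% and 15.3% of B cell UMIs. The members called higher were 1, Rpl6l, in non-dividing B cells beside 6.26% of all genes and 0 in dividing ones beside 10.5%. In B cells as a whole, past 1.5-fold, 1 member was higher beside 1.51% of all genes and 0 were lower beside 1.68%. Rps2 and Rpl9 came next on the high side with log2 ratios of 0.20 each, and Rps10 and Rpl30 on the low side with -0.28 each. In NK cells 5 of 77 were lower beside 11.9% of all genes and 0 higher beside 9.89%.

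In alveolar macrophages the share was 0.08 higher in log2, and the ratio of all genes had a median of 0.10, so with TMM scaling the sign turned to -0.02. Of 79 members there, 3 were higher in the C435A library beside 22.9% of all genes. They were Rpl10 (1159 and 884 CPM), Rps14 (2589 and 1988) and the sparse Rpl39l (15.8 and 10.9). Rpl39l had only 301 UMIs over all kept cells. Rpl15 (203 and 270 CPM) was lower, beside 9.30% of all genes. Past 1.5-fold, 0 members were higher beside 6.29% of all genes and 0 lower beside 2.93%. Rps4x had a log2 ratio of 0.32, Rpl24 -0.26 and Rpl27a -0.24.

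Classical monocytes (0.15), C1q macrophages (0.27), plasma cells (0.28) and mature neutrophils (0.38) had positive log2 ratios. With the relaxed gate they were 0.06, 0.17, 0.35 and 0.28. For classical monocytes that gate also drops Clec4e and Mcemp1, and 85 and 96 cells were left. In C1q macrophages (57 and 116 cells) 30 of 77 members were higher beside 21.6% of all genes, led by Rpl9 with 2241 and 1384 CPM. In non-dividing C1q macrophages (50 and 107 cells) the ratio was 0.39 and 46 of 77 were higher beside 21.4%. With the relaxed gate (93 and 215 cells, dividing ones included) 9 members were higher. The share of all genes was not counted with that gate, so this count cannot be set against other genes. In plasma cells 33 of 77 were higher beside 53.4%, and the median of all genes, 0.35, lay above the median member, 0.29; without mitochondrial and immunoglobulin UMIs the plasma cell ratio was -0.02, and in non-dividing plasma cells it was -0.04. In mature neutrophils only 41 members reached 100 UMIs, of which 24 were higher beside 15.3% of all genes. The median neutrophil had 3.42% in the C435A library and 3.50% in the WT library, and a stricter gate that left 26 and 24 neutrophils turned the ratio to -0.16.

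**Figure D3:**
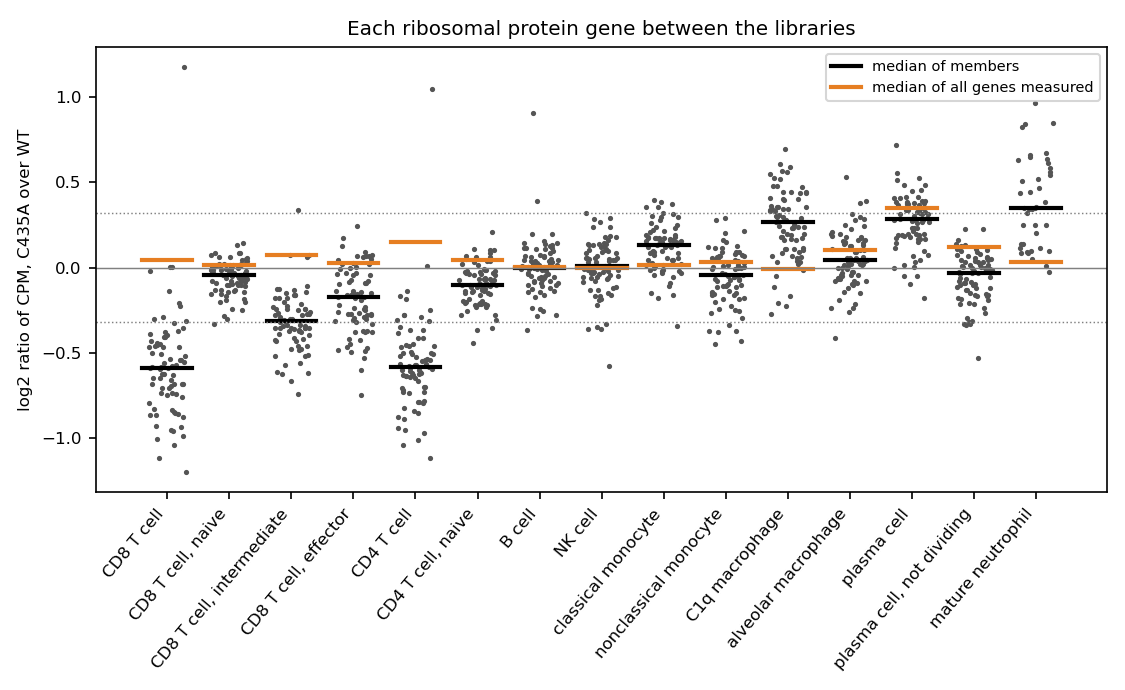
Log2 ratio of CPM, C435A over WT (y axis), for each ribosomal protein gene with at least 100 UMIs (grey points) by cell type or state (x axis); black bars are medians of the members, orange bars medians of all genes measured, dotted lines at 0.32 and -0.32. The members lie at a median of -0.59 in whole CD8 T cells and of -0.04 in naive CD8 T cells.

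Some members leaned to 1 library in each of the cell groups compared. Over 10 cell groups that share no cells and leave out dividing T and B cells, each of 77 members was set against the median member of its group. Of these, 16 lay on the same side in all 10 groups, 10 below and 6 above. Rpl15, which had 665 and 839 CPM in naive CD8 T cells, lay lowest, with a mean deviation of -0.36 (range over groups -0.55 to -0.16), followed by Rpl27a (-0.33), Rps10 (-0.27) and Rpl24 (-0.22). Rpl9 lay highest at 0.27 (0.12 to 0.47), with Rps14 (0.23) and Rps15a (0.17) also above in all groups. These genes were picked after their values were seen, and whether the lean belongs to the libraries' preparation or to the animals cannot be told apart with 1 library per group.

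The mix of members within the pool was compared apart from its size, as each gene's share of all ribosomal protein UMIs. Over 8 types with at least 100 cells in each library, the median of 77 members had a log2 range of 0.47 from lowest to highest type. The median difference between the libraries within a type was 0.09. A range over 8 types tends to exceed a single difference, so these values are not like measures. Rpl8, near the catalytic centre of the large subunit, had the narrowest range, 0.10: it took between 1.45% and 1.64% of the pool in the C435A library and between 1.44% and 1.56% in the WT library. Rps4x (0.16), Rps3 (0.19), Rpl3 (0.20) and Rpl23 (0.20) were next. Rps27l had the widest range, 2.93, followed by Rpl12 (1.40), Rpl10 (1.24), Rpl41 (1.20) and Rps27 (1.09).

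Rpl12, Rpl10, Rpl41 and Rps9 had their highest pool share in the same type in both libraries. Rpl12 took 1.83% and 2.21% of the pool in CD4 T cells and 0.767% and 0.761% in nonclassical monocytes. Rpl10, which joins the large subunit late in its assembly, took 1.76% and 1.64% in plasma cells and 0.816% and 0.680% in CD8 T cells. Rpl41, the shortest of the proteins, took 3.57% and 3.86% in plasma cells and 1.63% and 1.66% in B cells. Rps9 was highest in classical monocytes in both libraries, at 2.93% and 2.85%, against 1.71% and 1.71% in B cells. Rplp1 was highest in alveolar macrophages, at 4.68% and 4.28%, against 2.44% and 2.42% in nonclassical monocytes.

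**Figure D4:**
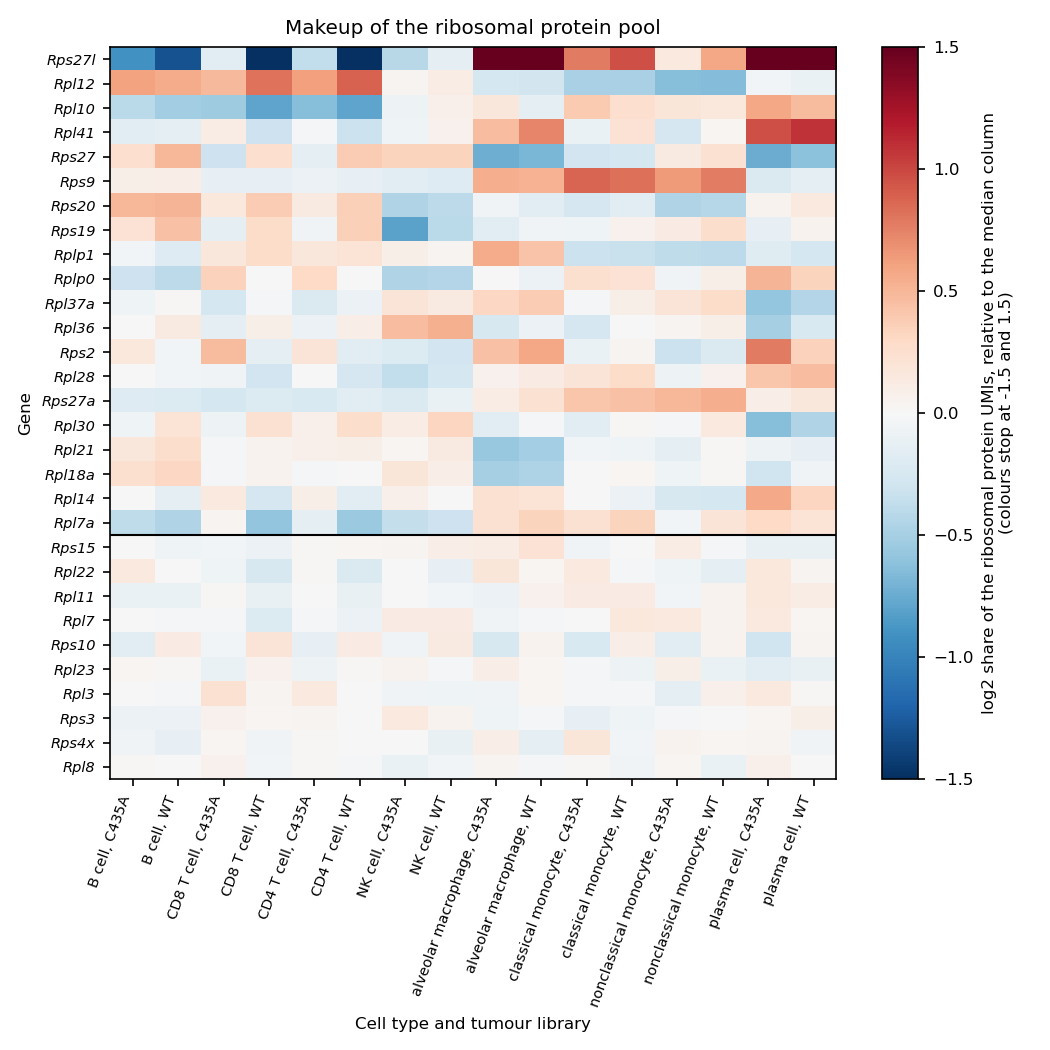
Share of the ribosomal protein pool taken by each gene (rows) in 8 cell types of both libraries (columns), as log2 relative to the median column, red high and blue low, with colours stopping at -1.5 and 1.5. The 20 rows above the line have the widest and the 10 rows below it the narrowest ranges across types; Rps9 is highest in classical monocytes of both libraries, at 2.93% and 2.85% of the pool.

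Rps27 and Rps27l, whose promoters are printed above, encode closely related proteins. Rps27l made up 2.08% and 1.85% of the UMIs of the pair in naive CD8 T cells, 7.12% and 4.17% in effector cells and 21.3% and 9.64% in dividing CD8 T cells. In B cells it was 2.16% and 1.84% when not dividing and 20.005% and 15.8% when dividing. Plasma cells had 40.7% and 35.8%, alveolar macrophages 37.1% and 39.1%, mature dendritic cells 39.8% and 42.6%, and C1q macrophages 29.1% and 36.1%. Classical monocytes (18.5% and 20.2%), nonclassical monocytes (9.85% and 12.1%), NK cells (6.03% and 7.18%) and mature neutrophils (6.30% and 6.63%) lay between. The level of Rps27l moved as well as its proportion: it was 127 and 125 CPM in naive CD8 T cells, 429 in dividing CD8 T cells of the C435A library, 511 and 540 in alveolar macrophages and 1452 and 1667 in mature dendritic cells. Cdkn1a, another p53 target, had 225 and 172 CPM in alveolar macrophages, 300 and 257 in mature dendritic cells and 5.0 and 8.59 in plasma cells. Mdm2, a p53 target that encodes an inhibitor of p53, had 59.3 and 51.3 CPM in alveolar macrophages, 40.05 and 37.2 in mature dendritic cells and 97.3 and 66.8 in plasma cells. Beside their high proportion of Rps27l, plasma cells had less Cdkn1a and more Mdm2 than those 2 types. Immunoglobulin genes took 39.5% and 50.9% of plasma cell UMIs, which lowers the CPM of other genes there. Any part of p53 in these levels was not tested.

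**Figure D5:**
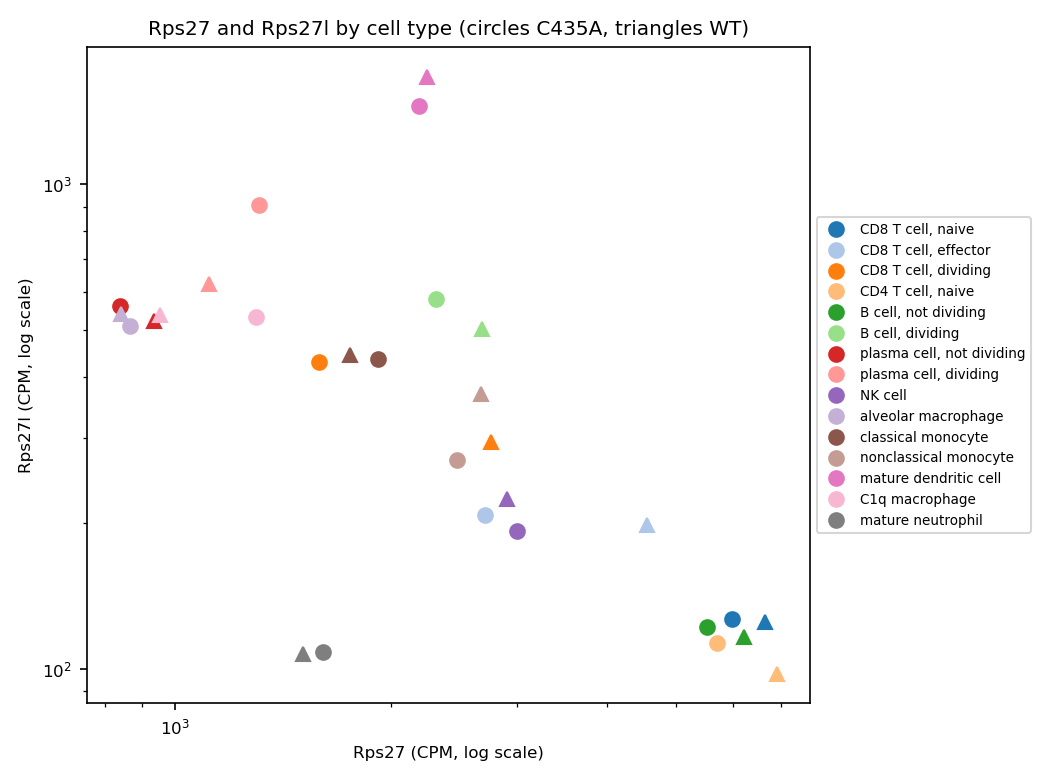
CPM of Rps27 (x axis, log scale) and Rps27l (y axis, log scale) by cell type or state, circles for the C435A and triangles for the WT library. Naive T cells and non-dividing B cells lie at the lower right, with Rps27l at 127 and 125 CPM in naive CD8 T cells, and mature dendritic cells at the top, at 1452 and 1667 CPM.

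The sparse members were uneven between types. Rps4l was highest in alveolar macrophages, with 83.6 and 77.5 CPM and a UMI in 34.8% and 43.4% of cells, against 1.55 and 3.41 CPM in naive CD8 T cells. Rps4x, the X-linked gene it resembles, had 1723 and 1384 CPM in alveolar macrophages. Rpl39l, known from male germ cells, had 15.8 and 10.9 CPM in alveolar macrophages and 0 UMIs in nonclassical monocytes of both libraries. Rpl3l, known from heart and skeletal muscle, had 51.8 and 24.7 CPM in nonclassical monocytes, from 41 and 13 UMIs, and 13.1 and 10.7 in alveolar macrophages, against 0 UMIs in CD8 T cells of both libraries. A count of 0 allows up to 3 UMIs.

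Other genes of the translation machinery did not all follow the members in CD8 T cells, where 25.0% of all genes were lower and 31.8% higher in the C435A library. Of the 5 elongation genes, 2 were lower in the C435A library and 0 higher. Eef1b2 had 1320 and 2192 CPM (-0.73), Eef1g 499 and 726 (-0.54), Eef1a1, which brings the aminoacyl-tRNA, 6732 and 8174 (-0.28), Eef1d 439 and 518 (-0.24) and Eef2, which moves the ribosome on, 1350 and 1357 (-0.01). Among 15 other TOP genes, 4 of them elongation genes already named, 7 were lower and 3 higher; Nap1l1 had 402 and 209 CPM (0.95). Of 39 ribosome biogenesis genes 25 were lower and 0 higher, with a median of -0.42; Gnl3 and Polr1a were both at -1.04. Of 27 initiation genes 2 were lower and 6 higher, with Eif4h at 0.81 and Eif1ax at 0.66. Of 15 regulators 3 were lower and 2 higher; Myc had 27.0 and 78.8 CPM (-1.55) and Mtor 18.5 and 10.7 (0.79). Rps27rt, a retrocopy whose reads may be shared with Rps27, was at -1.68. In naive CD8 T cells 0 of 5 elongation genes were called, and of 15 other TOP genes 1 was higher and 1 lower. Of 27 initiation genes there 2 were higher and 0 lower, and of 13 regulators 1 was higher and 1 lower. Among all genes in naive CD8 T cells 11.4% were higher and 10.0% lower.

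Mitochondrial ribosomal protein genes, which encode the ribosome of another compartment, went the other way. Of 77 measured in CD8 T cells, 43 were higher in the C435A library and 5 lower, with a median log2 ratio of 0.38, beside the same 31.8% and 25.0% of all genes; Mrpl27 had 55.004 and 25.1 CPM (1.13) and Mrpl18 246 and 118 (1.06). In naive CD8 T cells 7 of 66 were higher and 3 lower, with a median of -0.05, and of 34 biogenesis genes 7 were lower and 0 higher, beside 11.4% of all genes higher and 10.0% lower. In B cells 4 of 77 mitochondrial ribosomal protein genes were higher and 3 lower, beside 7.47% and 7.91% of all genes. In naive CD8 T cells and B cells these counts of mitochondrial genes thus lay below the shares of all genes.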

How the data were processed

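The authors deposited counts of UMIs per gene and barcode; Cell Ranger 7.2.0 made them, per the file headers. The submitters' processing notes name GRCm38. An annotation release is not given in the sources used here, nor is an intron setting. The labels' protocols name both BD Rhapsody and a 10x kit, so the platform is uncertain.

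The libraries held 59615672 (C435A) and 54934397 (WT) UMIs. Barcodes with at least 200 genes, 500 UMIs and under 20% mitochondrial UMIs were kept, and the highest Scrublet scores (scanpy 1.11.5; 0.8% per 1000 barcodes; 844 and 800) were removed as doublets. Cells were gated by summed marker UMIs: at least 2 of a type (plasma cells 3, melanoma cells 20) and at most 1 of any other lineage. For the melanoma markers the limit in other cells was under 20. A dividing cell had at least 3 UMIs of the cell cycle list. UMIs were summed per type and library; shares have exact Clopper-Pearson and ratios exact conditional intervals, checked on simulated counts. Genes with at least 100 UMIs in a type were counted past 0.32 in log2. No p-value was computed, with 1 library per group. TMM (edgeR 4.0.16) and median ratio (DESeq2 1.42.0) scaling were alternatives.

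The members, gates and lists were chosen with earlier results of these data known. Genes were named by rule: the 10 members with most UMIs, the 5 widest and narrowest pool ranges, the 3 highest and lowest ratios in 4 types (at least 200 UMIs), those near the threshold, elongation genes, and 2 per other list; other genes named were chosen after their values were seen. Some genes that the rule names are not reported here. Promoters and their positions are from RefSeq (GRCm38.p6), and gene types and overlaps are from a GENCODE mouse annotation. Counts came from 3′ ends, and 33 members overlap another gene on the same strand, 0 of them with one that has 5% of their UMIs.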

Additional observations from a re-analysis of the deposited data

Results flagged for a closer look

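In a pair of contrasts the log2 ratio was negative in some cell types and positive in others; the differences between types were not tested, with 1 library per group. The first is the share of ribosomal protein UMIs in dividing against other cells of the C435A library, whose log2 ratio was -0.66 in CD8 T cells, -0.60 in CD4 T cells and -0.25 in B cells but 0.92 in plasma cells. Leaving mitochondrial and immunoglobulin UMIs out of the denominator changed the plasma cell value to 0.21. The other T cells include naive cells, which had large shares. Dividing CD8 T cells of that library held 16.4% and effector ones 18.6%. In CD4 T cells these shares were 14.7% and 16.9%.

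The second is the share in the C435A over the WT library, with log2 ratios of -0.63 in CD8 T cells and -0.60 in CD4 T cells but 0.27 in C1q macrophages, 0.28 in plasma cells and 0.38 in mature neutrophils. Within naive cells the values were -0.04 in CD8 and -0.09 in CD4 T cells. With the T cell states weighted by the mean of both libraries' proportions they were -0.16 and -0.14. The plasma cell value was -0.02 without mitochondrial and immunoglobulin UMIs. The neutrophil value rests on 93 and 79 cells, whose median shares were 3.42% and 3.50%, and the stricter gate reversed its sign.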

How the results depend on the processing

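Of 226 alternative values for the ratio of the share between the libraries, over 25 types or states, 204 had the sign of the main value; for the 5 types or states past 0.32 in log2, 45 of 46 alternatives had the same sign and 38 stayed past it. The exception was the mature neutrophil ratio, which reversed to -0.1562 with the stricter gate, where 26 and 24 cells were left; the cause was not tested. Relaxed gating, states weighted by the mean of both libraries' proportions and the dividing contrast without mitochondrial and immunoglobulin UMIs were chosen after seeing the data.

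The CD8 T cell ratio (main value -0.6335) was -0.6371 without mitochondrial and immunoglobulin UMIs, -0.592 with the stricter gate, -0.6269 with no doublets removed, -0.6435 in cells with at least 2000 UMIs, -0.4668 with each cell weighted alike, -0.6302 with 6 related genes added to the members, -0.6563 with the relaxed gate, -0.6898 with TMM and -0.6782 with median ratio scaling, and -0.1606 with states weighted by those mean proportions. The naive CD8 ratio (-0.0426) was -0.0311 with the stricter gate, -0.0346 at 2000 UMIs, -0.0623 with TMM and -0.0558 with median ratio scaling. The B cell ratio (-0.0086) was -0.0149 without mitochondrial and immunoglobulin UMIs, -0.0146 at 2000 UMIs and 0.0046 with each cell weighted alike. The alveolar macrophage ratio (0.0781) was 0.0925 with each cell weighted alike, 0.1088 with the relaxed gate, and -0.0206 and -0.0229 with TMM and median ratio scaling.

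The naive CD8 share (32.39% and 33.36%) was 32.92% and 33.95% without mitochondrial and immunoglobulin UMIs, 32.9% and 33.62% with the stricter gate, 32.69% and 33.48% at 2000 UMIs, 32.12% and 33.1% with each cell weighted alike, 33.79% and 34.85% with the added genes and 32.2% and 33.09% with the relaxed gate. The mature neutrophil share (4.691% and 3.608%) was 3.807% and 4.243% with the stricter gate, 6.135% and 4.236% with no doublets removed, 4.298% and 3.721% with each cell weighted alike, 5.24% and 4.14% with the added genes and 4.548% and 3.749% with the relaxed gate.

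Counts of members also moved. Apart from 1.5-fold, given above, the share of all genes was not counted under these settings. The counts therefore cannot be set against other genes. In B cells 1 was higher with the stricter gate, and at 1.5-fold 1 was higher and 0 lower. In CD8 T cells 41 were lower at 1.5-fold, and 2 were higher among members with at least 1 UMI. In naive CD8 T cells 0 were lower at 2000 UMIs and at 1.5-fold, 2 were lower with TMM, and 1 was higher and 2 lower among members with at least 1 UMI. In alveolar macrophages 5 were higher and 2 lower with the stricter gate, 0 and 0 at 1.5-fold, and 1 and 4 with TMM.

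The dividing contrast in the C435A library was -0.6336 in CD8 T cells (-0.6579) and -0.2764 in B cells (-0.2531) with at least 6 UMIs of the list, -0.6684 and -0.3045 at 2000 UMIs, and 0.994 in plasma cells (0.9203). With the relaxed gate it was -0.6161 in CD8 T cells and 0.9421 in plasma cells, and without mitochondrial and immunoglobulin UMIs -0.2672 in B cells and 0.2138 in plasma cells. Depth limits the sparse members and the neutrophils, where 41 of 81 members reached 100 UMIs. No paired analysis was possible because each group has 1 library.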
